A study of Mus musculus with 12 samples.

Results

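The 33 genes described here are those of the ATF4 amino acid response and of the unfolded protein response, picked by name from a count table of 45706 mouse genes. All 33 were found in the table, and all 33 were among the 15922 genes with enough reads to be tested. The libraries were poly(A) RNA-seq of murine conventional T cells (con) and regulatory T cells (trg), each from wild-type (WT) and Coro1-/- (KO) material, with 3 libraries in each of the 4 groups. The labels name no other allele or agent; the age and sex of the mice, the organ, the way the cells were isolated and any treatment are not given in the sources used here. The labels do not tie replicates to different mice, and the spread behind each p-value is that between libraries and may be technical.

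Cells that run short of amino acids, or whose endoplasmic reticulum fills with unfolded protein, phosphorylate the translation factor eIF2 alpha, which slows protein synthesis overall while allowing translation of ATF4. ATF4 then switches on enzymes and transporters that supply amino acids, together with stress regulators such as Ddit3 and Chac1. In the endoplasmic reticulum the sensors IRE1 alpha (Ern1), PERK (Eif2ak3) and ATF6 detect unfolded protein; IRE1 alpha splices Xbp1 mRNA, and XBP1 and ATF6 raise chaperones and degradation factors. Activated T cells use the ATF4 targets to feed growth, and antibody-secreting cells depend on XBP1. ATF4 is controlled largely by translation and XBP1 by splicing, and neither is read by counts per gene. Below, the amino acid branch is Atf4, Atf3, Ddit3, Cebpb and the regulators, enzymes and transporters (20 genes), and the endoplasmic reticulum branch is the sensors, Xbp1, the chaperones and Edem1 (13 genes).

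Of 2 promoter elements found, 1 was met only in genes of the amino acid branch. The other was met only in genes of the endoplasmic reticulum branch. Most of the 33 genes held neither, so the elements do not separate the branches, and 4 windows with a match are shown. RefSeq windows on GRCm38.p6, from 250 bases before to 50 after the transcription start, were available for 31 of the 33 genes (33 windows; Atf6 and Slc7a5 were not matched). Both strands were searched for the ATF4 composite element CARE (TGATGNAAN), the endoplasmic reticulum stress element ERSE (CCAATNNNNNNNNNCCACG), its variant ERSE-II (ATTGGNCCACG) and an XBP1 element (TGACGTGG). CARE letters occurred in 3.95% of all 32851 windows and in 6 of the 33 windows of these genes (18.2%), those of Asns, Atf3, Chac1, Pycr1, Slc7a11 and Trib3. ERSE letters occurred in 0.119% of all windows and in 5 of 33 here (15.2%), those of Calr, Canx, Hsp90b1, Hspa5 and Pdia6. ERSE-II, present in 0.0365% of all windows, and the XBP1 element, present in 0.676%, were in 0 of the 33. A match is a description of the letters, not a site of binding. The windows below run 5′ to 3′ on the gene's strand, with the match in capitals. They belong to the 2 CARE-bearing and the 2 ERSE-bearing genes with the smallest p in a knockout comparison: Atf3 at chr1:191183284-191183583 on the minus strand, Chac1 at chr2:119350992-119351291 on the plus strand, Calr at chr8:84846882-84847181 on the minus strand and Pdia6 at chr12:17266339-17266638 on the plus strand.
Atf3: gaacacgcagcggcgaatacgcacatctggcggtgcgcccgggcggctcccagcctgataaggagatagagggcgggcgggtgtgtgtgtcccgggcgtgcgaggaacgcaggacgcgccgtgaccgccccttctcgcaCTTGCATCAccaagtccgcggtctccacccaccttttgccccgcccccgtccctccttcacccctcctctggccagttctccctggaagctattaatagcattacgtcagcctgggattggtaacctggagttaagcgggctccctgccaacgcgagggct
Chac1: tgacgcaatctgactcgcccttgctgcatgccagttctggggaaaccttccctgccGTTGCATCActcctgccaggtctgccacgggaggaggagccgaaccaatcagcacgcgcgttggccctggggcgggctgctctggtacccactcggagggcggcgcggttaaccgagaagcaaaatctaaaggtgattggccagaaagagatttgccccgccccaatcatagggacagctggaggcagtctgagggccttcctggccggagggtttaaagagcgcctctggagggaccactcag
Calr: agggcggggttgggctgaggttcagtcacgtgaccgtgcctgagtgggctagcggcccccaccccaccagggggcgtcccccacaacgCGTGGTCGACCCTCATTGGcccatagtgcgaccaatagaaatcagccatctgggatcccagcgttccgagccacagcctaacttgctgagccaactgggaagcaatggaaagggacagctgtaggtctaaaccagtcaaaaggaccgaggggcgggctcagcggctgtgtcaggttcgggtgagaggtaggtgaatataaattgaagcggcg
Pdia6: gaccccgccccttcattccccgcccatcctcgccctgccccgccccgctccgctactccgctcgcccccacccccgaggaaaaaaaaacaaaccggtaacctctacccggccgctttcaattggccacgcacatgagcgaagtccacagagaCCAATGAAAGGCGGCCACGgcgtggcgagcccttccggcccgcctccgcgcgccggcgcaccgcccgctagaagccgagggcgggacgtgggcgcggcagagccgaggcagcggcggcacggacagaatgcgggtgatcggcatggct

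Counting the first transcribed base as 0, the Atf3 match began at -111, the Chac1 match at -194, the Calr match at -162 and the Pdia6 match at -98. Slc7a11, which encodes the cystine carrier xCT, held 2 CARE matches, TGATGCAAA at -66 and TTTGCATCA, on the other strand, at -48. The match in Asns (asparagine synthetase) was TGATGAAAC at -23, the one in Pycr1 was TGATGCAAT at -103, and the one in Trib3 was TTTACATCA at 13, after the start. Among the chaperones, Hspa5 held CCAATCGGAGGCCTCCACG at -65, Canx held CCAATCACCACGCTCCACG at -145, and Hsp90b1 held 2 matches, at -212 and -107.

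Libraries held 19686870 to 33404302 counts in genes. The targeted gene, Coro1a, which encodes the actin-binding protein coronin 1A, lay at 2124, 2361 and 2399 CPM (gene counts scaled to library size) in WT conventional libraries against 44.1, 47.3 and 44.1 in KO, and at 2712, 2503 and 2312 CPM in WT regulatory libraries against 20.9, 28.8 and 30.4 in KO. Its log2 fold change was -5.67 ± 0.15 (SE) in conventional cells and -6.55 ± 0.15 in regulatory cells, in the direction of the labels in all 12 libraries. Regulatory T cell markers (6 genes such as Foxp3) summed to 1497 to 2002 CPM in regulatory, 111 to 174 CPM in WT conventional and 268 to 457 CPM in KO conventional libraries. B cell markers (8 genes, none at 0), which T cells lack, summed to 3495 to 4829 CPM in the 6 regulatory libraries, to 25.4 to 45.8 CPM in KO conventional and to 3.11 to 4.24 CPM in WT conventional libraries. Plasma cell markers (7 genes, Tnfrsf17 at 0 in WT conventional libraries) summed to 541 to 2142 CPM in regulatory, 63.3 to 115 in KO conventional and 27.8 to 41.4 in WT conventional libraries. In WT regulatory replicate 3 and KO regulatory replicate 1, both Xist (764 and 576 CPM) and Y-linked genes (20.2 and 61.2 CPM) were read. Results in regulatory cells are therefore also given without these libraries. In the other regulatory libraries Y-linked genes read 287 to 308 CPM and Xist at most 1.51 CPM. In conventional libraries of both genotypes, replicates 1 and 2 held Xist (1211 to 1746 CPM) and almost no Y-linked reads. Their replicates 3 held Y-linked reads (541 CPM in WT and 456 CPM in KO). The make-up by sex-linked reads thus differed between conventional and regulatory libraries. Mitochondrial genes took 5.16% to 8.15% of counts in regulatory, 2.14% to 2.33% in WT conventional and 1.44% to 1.52% in KO conventional libraries. In bulk RNA, fewer cells of a type and less RNA per cell cannot be told apart.

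**Figure D1:**
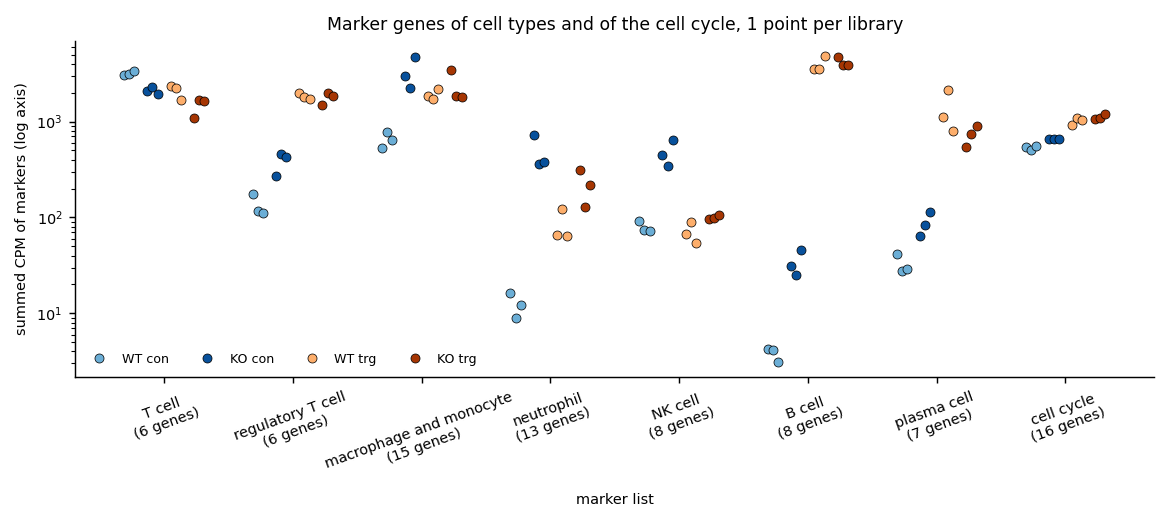
Summed CPM (log axis) of marker lists for cell types and the cell cycle, with 1 point for each of the 12 libraries, coloured by group. B cell markers lie at 3495 to 4829 CPM in regulatory libraries, and macrophage, neutrophil and NK cell markers lie higher in KO than in WT conventional libraries.

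In conventional T cells the question was how loss of coronin 1 changed the stress response genes. The KO libraries held more mRNA of all 3 sensors, of 4 of the 5 transcription factors, and of the low-level stress genes Chac1, Slc7a11, Sesn2 and Asns, while Atf4 itself did not pass the test. The other enzymes and the bulk amino acid transporters did not follow. Of these, 3 enzymes were lower, Phgdh and Shmt2 of serine and one-carbon supply and Pycr1 of proline synthesis. The 2 transporters Slc7a5 and Slc7a1 were lower as well. In all, 14 of the 33 genes were higher (42.4%) and 6 lower (18.2%), with 13 not called, where 23.3% of the 15922 tested genes were higher and 25.4% lower. The median log2 fold change of the 33 was -0.02, beside -0.05 over all genes. Counts were 7 higher and 5 lower in the amino acid branch and 7 higher and 1 lower in the endoplasmic reticulum branch. Chac1 and Slc7a11 lay under the filter level of 0.311 CPM in every WT conventional library and were tested through the other groups; without them 12 of 31 were higher (38.7%). Scaled on T cell genes instead, the median of all genes moved to 0.53 on the log2 scale and 22 of the 33 were higher and 0 lower; the 5 lowered genes Phgdh, Shmt2, Slc7a5, Slc7a1 and Edem1 turned to between 0.035 and 0.39, all below that median, so lower values here are relative to the bulk of genes. The T cell genes of this scale were Cd3d, Cd3e, Cd3g, Cd5, Cd6 and Lat. Lat lies on chromosome 7 at 126363824 to 126369570, near the targeted Coro1a at 126699773 to 126707787. A scale without Lat was not tried. Without the 4 regulatory libraries in which Xist and Y-linked genes both exceeded 1 CPM, which enter only through the shared spread and scaling, 12 were lower. Here and below, calls are edgeR quasi-likelihood tests at an adjusted p (Benjamini-Hochberg over the 15922 genes) under 0.05, errors on log2 fold changes are standard errors, and CPM are given for replicates 1, 2 and 3 in that order.

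Other cells' markers moved with the same genotype. Macrophage and monocyte markers (15 genes, none at 0) summed to 533 to 774 CPM in WT and 2236 to 4668 CPM in KO conventional libraries, neutrophil markers (13 genes, none at 0) to 8.90 to 16.2 and 364 to 729 CPM, and NK cell markers (8 genes, none at 0) to 72.0 to 91.1 and 343 to 635 CPM. T cell markers (6 genes) summed to 3063 to 3352 CPM in WT and 1949 to 2316 CPM in KO libraries, and dendritic cell markers (10 genes) to 637 to 690 and 385 to 410 CPM. The dendritic cell list includes Ccr7 and Bst2, and its sum was not split by gene. It therefore does not show whether dendritic cells were present or changed. Cell cycle markers (16 genes) summed to 510 to 557 and 657 to 662 CPM, and the regulatory T cell, B cell and plasma cell sums and the mitochondrial share given above also differed between the genotypes without overlap. KO conventional replicate 3, the library of its group with Y-linked reads, had the highest macrophage sum of the KO conventional libraries. It also had their highest Xbp1, Atf3, Cebpb, Atf6, Sdf2l1 and Pdia6. Replicate 1 had the highest neutrophil sum and the highest Chac1, Slc7a11 and Sesn2 of the KO conventional libraries. An order of 3 libraries cannot tell these marker lists apart. The part of these values in the results below was not tested.

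All 3 stress sensors were higher in KO conventional cells. Ern1, the IRE1 alpha kinase and endoribonuclease, read 28.8, 21.6 and 19.5 CPM in WT against 48.5, 44.4 and 55.6 CPM in KO libraries. Atf6, the membrane-bound factor released by Golgi proteases, read 26.0, 22.4 and 23.2 CPM in WT against 43.7, 44.9 and 61.3 CPM in KO. Each of these pairs of groups was apart with no overlap, and the means differed by about the same factor. The log2 fold change was 1.09 ± 0.13 for Ern1 (adjusted p = 5.47e-05) and 1.07 ± 0.14 for Atf6 (adjusted p = 0.000139). Eif2ak3, the PERK kinase that phosphorylates eIF2 alpha, read 55.0, 51.4 and 52.7 CPM in WT against 65.1, 63.5 and 63.3 CPM in KO. Its groups did not overlap either, and the difference was smaller, with a log2 fold change of 0.27 ± 0.07 (adjusted p = 0.00733).

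Transcription factors other than Atf4 were higher. Atf4 read 147, 153 and 148 CPM in WT against 141, 139 and 137 CPM in KO conventional libraries. Every KO library lay below every WT library, but the log2 fold change of -0.10 ± 0.06 did not pass (adjusted p = 0.21). Scaled on T cell genes, Atf4 was called higher at 0.49 (adjusted p = 0.0381), below the median of all genes of 0.53. Without the 4 regulatory libraries in which Xist and Y-linked genes both exceeded 1 CPM, its value was -0.13. Xbp1 read 53.6, 51.8 and 52.1 CPM in WT against 77.4, 73.4 and 94.9 CPM in KO, which was all above and more scattered, at a log2 fold change of 0.64 ± 0.14 (adjusted p = 0.00276). Cebpb, the C/EBP beta factor of stress and myeloid gene expression, read 2.79, 3.06 and 2.63 CPM in WT against 12.3, 10.6 and 14.2 CPM in KO. Its libraries were far apart, with a log2 fold change of 2.12 ± 0.17 (adjusted p = 5.85e-06). Atf3, a stress-induced factor that dimerises with other bZIP proteins and carries a CARE match, read 0.471, 0.391 and 0.481 CPM in WT against 3.10, 2.37 and 3.83 CPM in KO. Its rise of 2.78 ± 0.28 on the log2 scale (adjusted p = 2.07e-05) started from 41 counts over the 3 WT libraries. Ddit3, the pro-apoptotic factor CHOP, read 25.7, 25.5 and 23.4 CPM in WT against 31.8, 31.1 and 31.2 CPM in KO. The groups were tight and apart, and the log2 fold change was 0.34 ± 0.07 (adjusted p = 0.00219). The Ddit3 gene overlaps Mars on the opposite strand, and reads were counted by strand.

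Of the 4 stress-induced regulators, 2 were higher. Sesn2, sestrin 2, a leucine-binding inhibitor of mTORC1, read 7.20, 8.15 and 8.36 CPM in WT against 22.0, 17.5 and 18.7 CPM in KO. Its groups were clearly apart, with a log2 fold change of 1.29 ± 0.13 (adjusted p = 2.63e-05). Chac1, a glutathione-degrading enzyme with a CARE match, read 0.0336, 0 and 0 CPM in WT against 1.14, 0.515 and 0.547 CPM in KO. That is 1 count against 77 over 3 libraries each, a library-size-scaled ratio of 67.9 with an exact 95% counting interval of 11.8 to 2715, which covers counting error only; the adjusted p was 0.000179. Trib3, a pseudokinase that feeds back on ATF4, read 5.85, 6.78 and 5.86 CPM in WT against 5.38, 3.89 and 4.01 CPM in KO. All KO values were lower, and the log2 fold change of -0.48 ± 0.19 missed the threshold (adjusted p = 0.0591; 0.0451 by DESeq2 and 0.0308 by limma-voom). Ddit4, the mTORC1 inhibitor REDD1, was scattered at 382 ± 107 CPM (SD, n = 3) in WT and 365 ± 60.1 in KO, a log2 fold change of -0.07 ± 0.27 (adjusted p = 0.859).

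The enzymes split. Asns read 0.908, 0.652 and 0.416 CPM in WT against 2.16, 1.89 and 2.01 CPM in KO conventional libraries. It was the 1 enzyme of 8 that rose, by 1.61 ± 0.24 on the log2 scale (adjusted p = 0.000276), from 60 counts over the WT libraries. Shmt2, the mitochondrial enzyme that turns serine into glycine and one-carbon units, read 72.0, 72.9 and 80.9 CPM in WT against 64.8, 66.2 and 65.7 CPM in KO. Phgdh, which opens the serine pathway, read 40.8, 43.6 and 48.4 CPM in WT against 37.6, 37.4 and 33.4 CPM in KO. In both genes every KO library was below every WT library, by a small margin. Shmt2 fell by 0.20 ± 0.05 (adjusted p = 0.00686) and Phgdh by 0.29 ± 0.08 (adjusted p = 0.0108) on the log2 scale. Both calls were lost with a minimum mean of 5 CPM, and that of Shmt2 also in a fit of the compared groups alone and without KO regulatory replicate 2. Pycr1, the last step of proline synthesis, read 1.04, 0.913 and 0.737 CPM in WT against 0.388, 0.400 and 0.304 CPM in KO, a log2 fold change of -1.29 ± 0.35 (adjusted p = 0.0104) on 82 and 38 counts. Psat1 and Psph, the next steps of serine synthesis, Mthfd2 of the mitochondrial folate cycle and Aldh18a1 of proline synthesis had log2 fold changes between -0.20 and -0.07 with adjusted p of 0.0758 to 0.236, and in each the KO libraries were all below the WT libraries.

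Amino acid transporters also split by level. Slc7a5, the large neutral amino acid carrier LAT1, read 44.3, 44.3 and 46.3 CPM in WT against 30.9, 31.1 and 29.8 CPM in KO conventional libraries. It had the smallest p of the 6 lowered genes, at a log2 fold change of -0.56 ± 0.07 (adjusted p = 8.51e-05). Slc3a2, the heavy chain that LAT1 and xCT both need, lay at 101 ± 4.03 CPM in WT and 96.4 ± 4.39 in KO (SD, n = 3) with overlap (adjusted p = 0.455). Slc7a1, the arginine and lysine carrier CAT1, read 106, 98.6 and 97.6 CPM in WT against 82.8, 85.1 and 77.2 CPM in KO, lower without overlap, at -0.30 ± 0.06 on the log2 scale (adjusted p = 0.00215). Slc7a11 went the other way, with 0.135, 0.0652 and 0.0641 CPM in WT libraries and 1.83, 0.887 and 0.669 CPM in KO libraries. It rested on 8 and 119 counts, a ratio of 13.1 with an exact 95% counting interval of 6.44 to 31.1 (adjusted p = 0.000266).

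Chaperones of the endoplasmic reticulum moved little in conventional cells: 3 of 9 were higher and Edem1 was lower. Sdf2l1, an Hspa5 co-chaperone, read 9.72, 11.3 and 10.9 CPM in WT against 17.1, 14.0 and 20.9 CPM in KO, the largest rise of the 9 at 0.70 ± 0.13 on the log2 scale (adjusted p = 0.00146). Hspa5, the central chaperone BiP, read 341, 339 and 347 CPM in WT against 380, 407 and 425 CPM in KO. Its groups were apart, but the log2 fold change of 0.24 ± 0.08 (adjusted p = 0.03) lost its call when WT replicate 1, 2 or 3 or KO replicate 2 or 3 was left out, with adjusted p up to 0.109 over all settings tried. Pdia6, a disulfide isomerase, read 89.2, 90.7 and 92.7 CPM in WT against 103, 98.9 and 115 CPM in KO, at 0.22 ± 0.06 (adjusted p = 0.00872). Edem1, which hands misfolded glycoproteins to degradation, read 369, 333 and 327 CPM in WT against 298, 305 and 290 CPM in KO, at -0.20 ± 0.06 (adjusted p = 0.017), and lost its call without WT replicate 1 or KO replicate 3. The most abundant chaperones, Calr and Canx of the glycoprotein folding cycle and Hsp90b1 (GRP94), together with the disulfide isomerase Pdia4 and the co-chaperone Dnajb9, lay within -0.07 and 0.08 on the log2 scale, and none was called (adjusted p of 0.297 to 0.839). Of the 5 genes with an ERSE match, Hspa5 and Pdia6 were therefore called higher in conventional cells. Of the 6 with a CARE match, Asns, Atf3, Chac1 and Slc7a11 were higher, Pycr1 was lower and Trib3 was not called. Chac1 and Slc7a11 passed the filter only through groups other than WT conventional. Over all tested genes 23.3% were higher and 25.4% lower, and a link between element and change was not tested.

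**Figure D2:**
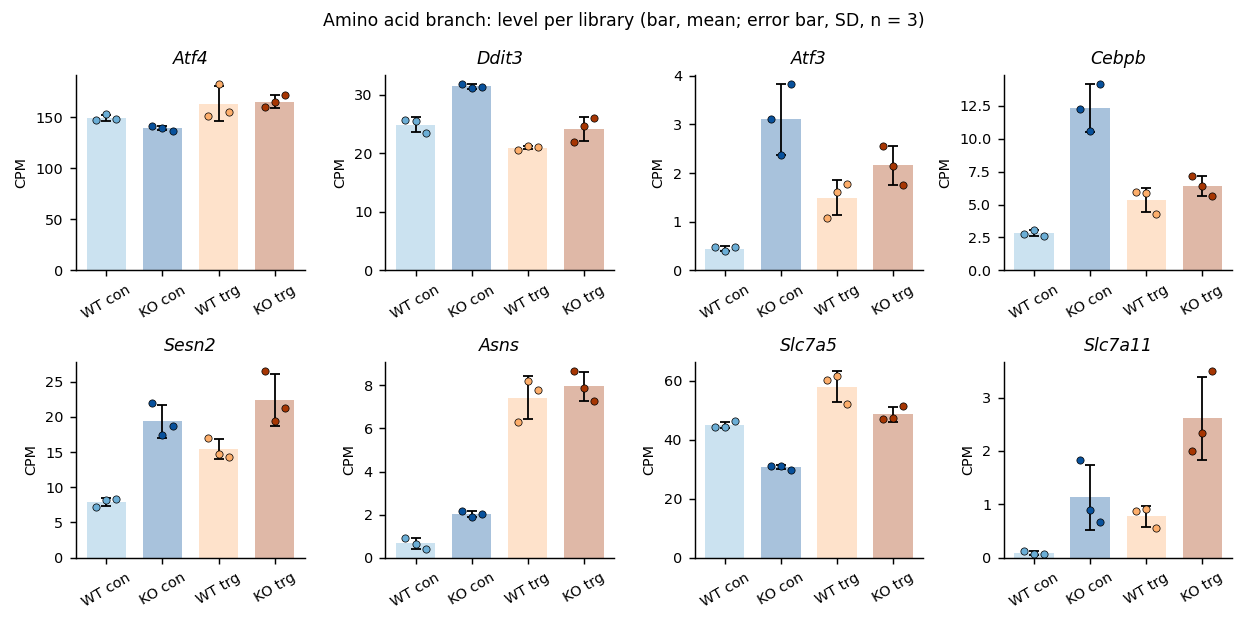
CPM of 8 genes of the amino acid branch, with 1 point per library, bars for group means and error bars for SD (n = 3). Atf4 is near the same level in all 4 groups, while Atf3, Cebpb, Sesn2, Asns and Slc7a11 are higher and Slc7a5 lower (not so when scaled on T cell genes) in KO than in WT conventional libraries.

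In regulatory libraries the same question drew fewer calls. Coronin 1 loss went with more mRNA of the chaperones Calr, Pdia4, Pdia6 and Hsp90b1, of the sensor Ern1, and of Sesn2 and Slc7a11, and with less Slc7a5. Of the 5 transcription factors and 8 enzymes, 0 passed edgeR, and DESeq2 and limma-voom also called 0; by unadjusted p only Ddit3 was under 0.05. The counts were 7 higher (21.2%) and 1 lower (3.03%) of 33, with 25 not called, where 4.01% of the tested genes were higher and 3.82% lower. The median log2 fold change of the 33 was 0.07, beside 0.00 over all genes. The endoplasmic reticulum branch gave 5 of the higher calls and the amino acid branch 2 higher and 1 lower. The count rested on single libraries: 3 genes were higher without KO replicate 3, 4 without WT replicate 1, and over all genes 439 were called without KO replicate 3, 474 without WT replicate 2, 674 without WT replicate 1, 684 without KO replicate 1 and 1974 without WT replicate 3, against 1246 with all libraries. Without the 2 libraries in which Xist and Y-linked genes both exceeded 10 CPM, 6 of the 33 were higher and 2 lower; without the 4 where both exceeded 1 CPM, which leaves 1 library a genotype, 0 were higher and 0 lower (125 genes called by edgeR). Scaled on T cell genes, 19 were higher and 0 lower with the median of all genes at 0.53, and Slc7a5 turned to 0.28. B cell markers summed to 3495 to 4829 CPM in WT and 3867 to 4721 CPM in KO regulatory libraries, plasma cell markers to 790 to 2142 and 541 to 898, macrophage markers to 1719 to 2205 and 1818 to 3481, neutrophil markers to 64.6 to 122 and 128 to 310, NK cell markers to 54.2 to 90.2 and 96.6 to 106, and T cell markers to 1683 to 2323 and 1083 to 1663. The neutrophil, NK cell and T cell sums did not overlap between the genotypes. Their part in these results was not tested.

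Among the chaperones, Calr, calreticulin, read 551, 536 and 515 CPM in WT against 661, 713 and 716 CPM in KO regulatory libraries. Pdia4 read 247, 240 and 246 CPM in WT against 323, 279 and 297 CPM in KO. Both genes were higher in every KO library, at log2 fold changes of 0.38 ± 0.05 (adjusted p = 0.00361) and 0.29 ± 0.05 (adjusted p = 0.00754). Pdia6 read 147, 159 and 146 CPM in WT against 177, 184 and 186 CPM in KO, at 0.28 ± 0.06 (adjusted p = 0.0161), a call that was lost without WT replicate 1 or KO replicate 3. Hsp90b1 lay at 443 ± 31.5 CPM in WT and 523 ± 30.3 in KO (SD, n = 3), and its log2 fold change of 0.24 ± 0.06 only just passed (adjusted p = 0.0409, up to 0.296 over the settings tried). Hspa5 read 538, 566 and 475 CPM in WT against 548, 635 and 655 CPM in KO. The groups overlapped and the log2 fold change of 0.22 ± 0.08, close to the 0.24 of conventional cells, was not called (adjusted p = 0.117; 0.0369 by DESeq2). Sdf2l1 read 20.4, 25.6 and 21.9 CPM in WT against 30.6, 30.9 and 30.6 CPM in KO, all above but short of the threshold at 0.44 ± 0.13 (adjusted p = 0.0652; 0.0277 by DESeq2). Edem1 read 233, 249 and 222 CPM in WT against 190, 211 and 202 CPM in KO, all below and just short at -0.22 ± 0.06 (adjusted p = 0.0504; 0.00444 by DESeq2 and 0.0482 by limma-voom). Canx and Dnajb9 had log2 fold changes of 0.07 and -0.08 (adjusted p = 0.414 and 0.607).

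**Figure D3:**
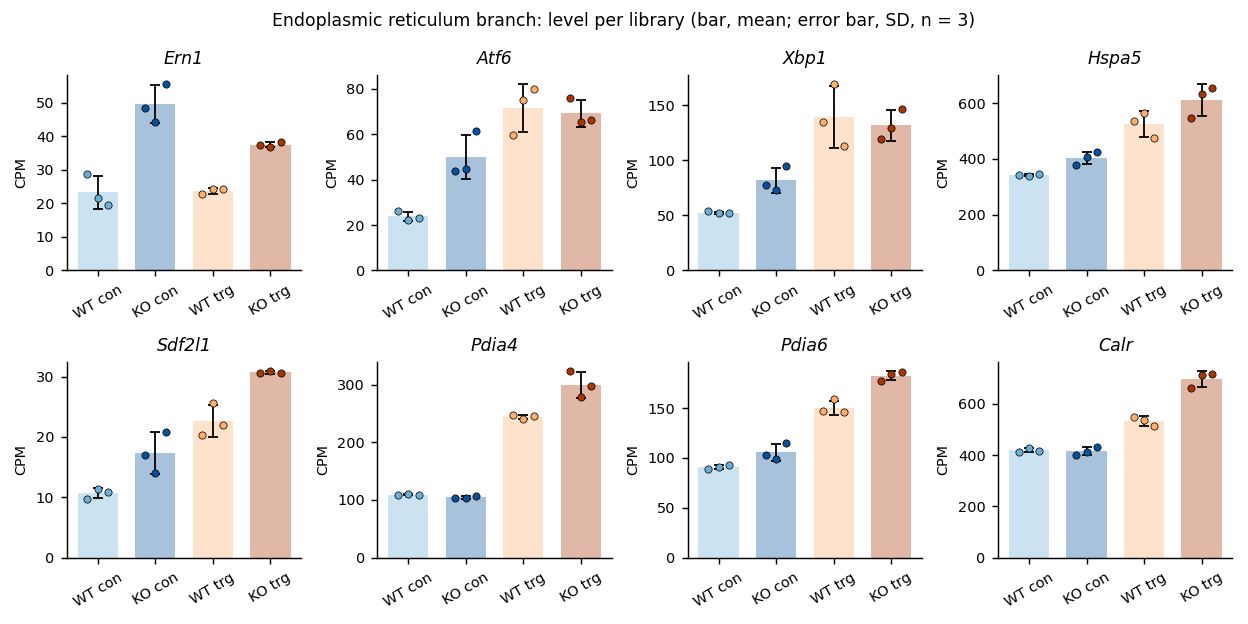
CPM of 8 genes of the endoplasmic reticulum branch, with 1 point per library, bars for group means and error bars for SD (n = 3). Calr and Pdia4 differ between genotypes in regulatory libraries and not in conventional ones, whereas Atf6 and Xbp1 show the reverse.

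Ern1 was the sensor that rose in both cell types. It read 22.6, 24.2 and 24.4 CPM in WT against 37.4, 36.9 and 38.2 CPM in KO regulatory libraries, a tight and separate pair of groups, at a log2 fold change of 0.66 ± 0.13 (adjusted p = 0.0125). Atf6 read 59.6, 75.0 and 80.1 CPM in WT against 75.9, 65.3 and 66.5 CPM in KO, with overlap, at -0.05 ± 0.14 (adjusted p = 0.855). Eif2ak3 read 67.2, 66.0 and 78.3 CPM in WT against 63.2, 66.9 and 59.4 CPM in KO, also with overlap, at -0.16 ± 0.07 (adjusted p = 0.176).

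No transcription factor of the 5 passed in regulatory cells. Atf4 read 151, 183 and 155 CPM in WT against 160, 164 and 172 CPM in KO, at a log2 fold change of 0.02 ± 0.06 (adjusted p = 0.884). Scaled on T cell genes, Atf4 was called at 0.55 (adjusted p = 0.039), beside a median of all genes of 0.53. Xbp1 read 135, 169 and 113 CPM in WT against 120, 129 and 147 CPM in KO, at -0.08 ± 0.14 (adjusted p = 0.753). For both genes the WT libraries spanned the KO values. In WT regulatory libraries Xbp1 and the plasma cell marker sum had the same order, replicate 2 highest and replicate 3 lowest. Within KO regulatory and within WT conventional libraries they also shared an order, but within KO conventional libraries they did not. The plasma cell list includes Prdm1, Irf4 and the degradation gene Derl3. An order of 3 libraries does not show the source of Xbp1 reads, which was not tested. Ddit3 read 20.6, 21.2 and 21.1 CPM in WT against 21.9, 24.7 and 25.9 CPM in KO, all above but not called at 0.21 ± 0.07 (adjusted p = 0.0936). It was called without the 2 libraries in which Xist and Y-linked genes exceeded 10 CPM (0.28, adjusted p = 0.0468), without KO replicate 1 (0.0478), with a minimum mean of 5 CPM (0.044) and with T cell gene scaling (0.0278). Atf3 read 1.08, 1.62 and 1.77 CPM in WT against 2.56, 2.15 and 1.76 CPM in KO, and Cebpb read 5.96, 5.85 and 4.32 CPM in WT against 7.19, 6.38 and 5.68 CPM in KO. Both overlapped between genotypes, with adjusted p of 0.224 and 0.349.

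Sesn2 and Slc7a11 carried the higher calls of the amino acid branch in regulatory cells. Sesn2 read 17, 14.8 and 14.3 CPM in WT against 26.5, 19.4 and 21.2 CPM in KO, at 0.54 ± 0.13 on the log2 scale (adjusted p = 0.0299). Slc7a11 read 0.866, 0.905 and 0.548 CPM in WT against 2, 2.33 and 3.49 CPM in KO, at 1.76 ± 0.39 (adjusted p = 0.0225), a library-size-scaled ratio of 3.45 (exact 95% counting interval 2.60 to 4.63). Neither pair of groups overlapped, yet without the 2 libraries that held both Xist and Y-linked reads the adjusted p was 0.125 for Sesn2 and 0.0502 for Slc7a11. Sesn2 also lost its call without WT replicate 2 or 3 or KO replicate 1 or 3, and Slc7a11 without WT replicate 1 or 2 or KO replicate 3. Slc7a5 read 60.2, 61.7 and 52.0 CPM in WT against 46.9, 47.4 and 51.4 CPM in KO. The groups nearly met, and the log2 fold change of -0.26 ± 0.07 (adjusted p = 0.043) was no longer called in 17 of 26 other settings. Slc7a1 read 73.9, 66.6 and 71.5 CPM in WT against 76.6, 77.1 and 69.0 CPM in KO (adjusted p = 0.5). Slc3a2, at 122 ± 14.5 CPM in WT and 118 ± 3.28 in KO (SD, n = 3), was not called either (adjusted p = 0.684).

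The remaining regulators and all enzymes were not called in regulatory cells. Asns read 6.28, 8.21 and 7.80 CPM in WT against 8.66, 7.89 and 7.29 CPM in KO, at a log2 fold change of 0.09 ± 0.20 (adjusted p = 0.807). Phgdh read 75.3, 74.9 and 72.4 CPM in WT against 72.1, 77.4 and 85.8 CPM in KO (adjusted p = 0.553). Both overlapped. Aldh18a1 read 81.5, 78.6 and 81.6 CPM in WT against 81.4, 87.4 and 86.4 CPM in KO (adjusted p = 0.284), and Pycr1 read 1.62, 3.36 and 1.68 CPM in WT against 1.25, 1.87 and 1.61 CPM in KO (adjusted p = 0.316). Shmt2 had the same mean level of 102 CPM in both genotypes (SD 1.45 in WT and 3.54 in KO, n = 3). Psat1, Psph and Mthfd2 had log2 fold changes of -0.07, -0.03 and -0.06. Ddit4 read 329, 263 and 145 CPM in WT against 194, 143 and 164 CPM in KO, a wide spread with a log2 fold change of -0.56 ± 0.27 (adjusted p = 0.226), which reached -0.83 without WT replicate 3 (adjusted p = 0.0365) and -0.94 without WT replicate 3 and KO replicate 1 (adjusted p = 0.041). Trib3 read 4.12, 3.26 and 3.09 CPM in WT against 2.56, 3.33 and 3.83 CPM in KO (adjusted p = 0.793). Chac1 read 0.650, 0.420 and 0.258 CPM in WT against 0.563, 0.363 and 0.517 CPM in KO, 33 and 47 counts in all, a ratio of 1.17 (exact 95% counting interval 0.734 to 1.88).

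Whether the knockout effect differed between the cell types was tested as the effect in regulatory minus that in conventional libraries. It differed for 13 of the 33 genes, 5 upward (15.2%) and 8 downward (24.2%), where 8.86% of tested genes differed upward and 12.4% downward. Scaled on T cell genes, 0 differed upward and 3 downward (Chac1, Atf3 and Cebpb), and no sign turned. Downward genes were those that rose mainly in conventional cells. The differences on the log2 scale were -5.45 ± 0.98 for Chac1 (adjusted p = 0.00322, resting on its single count in WT conventional libraries), -2.27 ± 0.37 for Atf3 (0.00211), -1.86 ± 0.24 for Cebpb (0.000523), -1.52 ± 0.31 for Asns (0.00631) and -1.12 ± 0.20 for Atf6 (0.00307). Sesn2, Xbp1 and Eif2ak3 followed at -0.75 ± 0.19 (0.0159), -0.72 ± 0.19 (0.0217) and -0.43 ± 0.10 (0.0107). Upward genes were the chaperones Calr at 0.40 ± 0.08 (0.00479) and Pdia4 at 0.36 ± 0.07 (0.00544), which rose in regulatory cells only by their own tests, and Slc7a1 at 0.38 ± 0.09 (0.0127), Phgdh at 0.37 ± 0.11 (0.0363) and Slc7a5 at 0.30 ± 0.10 (0.0467). Of the last 3, all were lower in KO conventional cells, and in regulatory cells Slc7a5 was lower while Slc7a1 and Phgdh were not called (0.07 and 0.08). The difference lost its call in 17 of 25 other settings for Slc7a5 and in 15 of 25 for Phgdh, the replicate block and most left-out libraries among them, and for Slc7a1 without KO regulatory replicate 2. The call for Xbp1 was lost without WT conventional replicate 2 or 3 or KO conventional replicate 3, and 2 or 3 upward genes were left without KO regulatory replicate 2 (2 genes) or without WT conventional replicate 2 or 3, KO conventional replicate 3, WT regulatory replicate 3 or KO regulatory replicate 3 (3 genes each). For Ern1 and Slc7a11 the difference was -0.43 ± 0.18 and -1.87 ± 0.69 and did not pass (adjusted p = 0.107 and 0.0727). For Hspa5 it was -0.02 ± 0.11 (adjusted p = 0.934), so its call in conventional cells alone does not show a difference between the cell types.

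**Figure D4:**
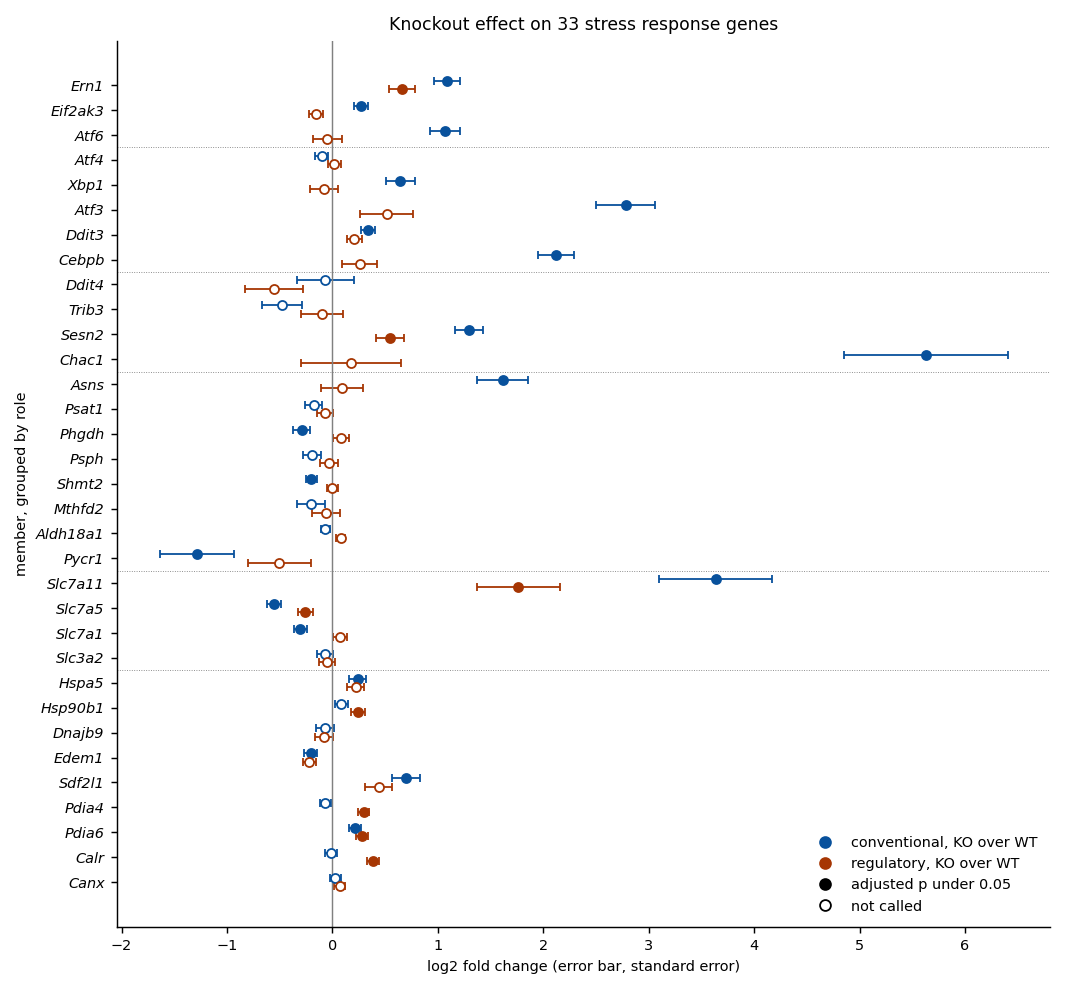
Log2 fold change of KO over WT for the 33 genes, grouped by role, in conventional (blue) and regulatory (brown) libraries, with standard errors; filled points have an adjusted p under 0.05. Atf6, Xbp1, Atf3, Cebpb, Chac1 and Asns are apart between the cell types, and Calr and Pdia4 are displaced to the right in regulatory libraries.

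Regulatory against conventional libraries of the same genotype gave the most calls. In WT these libraries also differed without overlap by B cell and plasma cell markers and the mitochondrial share, as given above. The same held for cell cycle markers (510 to 557 CPM in conventional and 916 to 1094 in regulatory libraries), macrophage markers (533 to 774 and 1719 to 2205), neutrophil markers (8.90 to 16.2 and 64.6 to 122), T cell markers (3063 to 3352 and 1683 to 2323) and dendritic cell markers (637 to 690 and 398 to 440). The part of these in the cell type comparison was not tested, and the dendritic cell list has the limit given above. Sex-linked reads also differed in make-up between the cell types, as given above. With an Xist term in the fit, all 91 calls on the 33 genes over all comparisons were kept. That term does not describe libraries that held both Xist and Y-linked reads. Without the 2 libraries in which both exceeded 10 CPM, 89 of these calls were kept and 2 were lost. The lost calls were Sesn2 and Slc7a11 for KO over WT in regulatory libraries. These fits do not settle the part of sex, which was not tested apart from cell type. In WT, 22 of the 33 genes were higher (66.7%) and 4 lower (12.1%) in regulatory libraries, where 39.1% of tested genes were higher and 33.3% lower. Within KO, 19 were higher (57.6%) and 5 lower (15.2%), beside 36.1% and 31.7% of all tested genes. Median log2 fold changes of the 33 were 0.41 in WT and 0.25 in KO, beside 0.07 and 0.03 over all genes. Scaled on T cell genes these counts were 28 higher and 0 lower in WT and 24 and 0 in KO, beside medians of all genes of 0.71 and 0.62; Ddit3 and Edem1 turned positive in both genotypes, Slc7a1 in WT and Ern1 in KO, all below those medians. The 2 comparisons share no library with each other, but each shares its libraries with the knockout comparisons.

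Enzymes of amino acid supply were higher in regulatory libraries in 5 of 8 cases in WT and 6 of 8 in KO. Asns differed most among them, from 0.659 ± 0.246 CPM in WT conventional to 7.43 ± 1.02 CPM in WT regulatory libraries (SD, n = 3). That is a log2 fold change of 3.49 ± 0.24 (adjusted p = 1.97e-07), and 1.97 ± 0.21 within KO (adjusted p = 8.63e-06). Phgdh went from 44.3 ± 3.86 to 74.2 ± 1.57 CPM and Psat1 from 32.7 ± 1.92 to 55.7 ± 3.64 CPM in WT, at log2 fold changes of 0.75 ± 0.08 (adjusted p = 6.53e-06) and 0.77 ± 0.08 (adjusted p = 5e-06). Shmt2 and Pycr1 were higher as well, by 0.44 ± 0.05 and 1.32 ± 0.31 on the log2 scale. Psph and Mthfd2 were not called in either genotype, with log2 fold changes of 0.02 and -0.00 in WT, and Aldh18a1 was called in KO alone (0.10 in WT and 0.24 in KO).

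Transporters and regulators were less uniform. Slc7a11, Slc7a5 and Slc3a2 were higher in WT regulatory libraries, at 3.08 ± 0.56, 0.37 ± 0.07 and 0.28 ± 0.07 on the log2 scale, and Slc7a1 was lower at -0.51 ± 0.06 (adjusted p = 1.88e-05). Sesn2 was higher at 0.96 ± 0.13 (adjusted p = 5.69e-05), and Trib3 lower at -0.83 ± 0.20 (adjusted p = 0.00257). Chac1 read 33 counts in WT regulatory against 1 in WT conventional libraries, a ratio of 37.6 (exact 95% counting interval 6.29 to 1529). Ddit4 was lower in KO regulatory than in KO conventional libraries, at -1.13 ± 0.27 (adjusted p = 0.00328), and short of the threshold in WT at -0.64 ± 0.27 (adjusted p = 0.0516).

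In the endoplasmic reticulum branch 10 of 13 genes were higher and 1 lower in WT regulatory libraries, with the sensor Atf6 and Xbp1 showing the largest log2 fold changes. Xbp1 went from 52.5 ± 0.977 CPM in WT conventional to 139 ± 28.4 CPM in WT regulatory libraries (SD, n = 3), at 1.41 ± 0.14 on the log2 scale (adjusted p = 3.36e-06), beside the B cell and plasma cell sums given above. Pdia4 had the smallest p of the 33, from 109 ± 1.22 to 244 ± 3.81 CPM, at 1.16 ± 0.05 in WT (adjusted p = 9.86e-09) and 1.52 ± 0.05 in KO (adjusted p = 3.32e-09). Sdf2l1, Pdia6 and Hspa5 followed in WT at 1.09 ± 0.14, 0.73 ± 0.06 and 0.62 ± 0.08, and Calr, Hsp90b1 and Canx at 0.35, 0.22 and 0.16, of which Canx lost its call without WT conventional replicate 1 or KO regulatory replicate 2. Edem1 went against them in both genotypes, at -0.55 ± 0.06 in WT and -0.57 ± 0.06 in KO, and Dnajb9 was called in neither (0.04 in each). Of the sensors, Atf6 was higher in both genotypes (1.59 ± 0.14 in WT and 0.47 ± 0.14 in KO). Its call in KO was lost at a threshold of 0.01 and with a 1.5-fold minimum. Ern1 was level in WT (0.03 ± 0.13, adjusted p = 0.855) and lower in KO regulatory libraries (-0.40 ± 0.12, adjusted p = 0.013), a call lost without KO conventional replicate 3. Eif2ak3 was higher in WT at 0.41 ± 0.07 (adjusted p = 0.000228) and not called in KO (-0.02 ± 0.07).

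Of the transcription factors, Xbp1, Atf3 and Cebpb had cell type contrasts that differed between the genotypes by the test of the difference given above, and Atf4 and Ddit3 did not (adjusted p = 0.381 and 0.391). Atf4 was not called in WT (0.13 ± 0.06, adjusted p = 0.0895) and was higher in KO regulatory libraries (0.25 ± 0.06, adjusted p = 0.00455), a call lost without KO regulatory replicate 2. In WT Atf4 was called higher by DESeq2 (adjusted p = 0.0373), with RLE factors (0.0444) and with upper-quartile factors (0.0404). The same held for a minimum mean of 5 CPM (0.0169), T cell gene scaling (0.00186) and without WT regulatory replicate 1 (0.0283). Cebpb was higher in WT regulatory than WT conventional libraries (0.92 ± 0.17) and lower in KO regulatory than KO conventional libraries (-0.94 ± 0.16). The latter was no longer called when scaled on T cell genes, at -0.35 (adjusted p = 0.284). Atf3 was higher in WT at 1.74 ± 0.28 and not called in KO at -0.52 ± 0.24 (adjusted p = 0.0728). Ddit3 was lower in regulatory libraries of both genotypes, at -0.25 ± 0.07 and -0.38 ± 0.07.

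**Figure D5:**
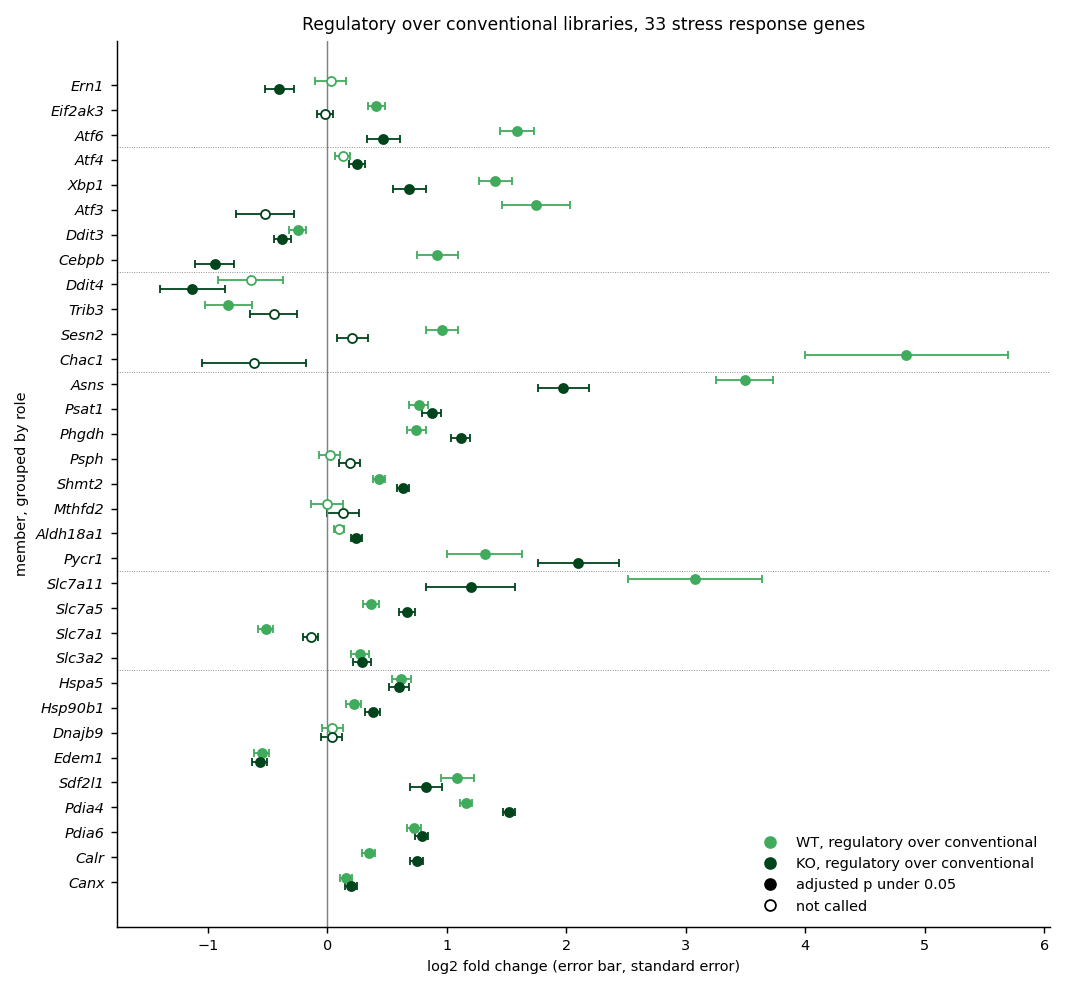
Log2 fold change of regulatory over conventional libraries for the 33 genes, grouped by role, within WT (light green) and within KO (dark green), with standard errors; filled points have an adjusted p under 0.05. Asns, Psat1, Phgdh, Shmt2, Pycr1 and Pdia4 lie to the right in both genotypes, and Cebpb lies on opposite sides.

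Levels between genes can be compared only per length, here as CPM per kilobase of exon. In WT conventional libraries the order was led by Ddit4 at 218 ± 61.0, Calr at 146 ± 3.06, Hsp90b1 at 94.3 ± 1.26 and Hspa5 at 81.0 ± 0.951 (SD, n = 3), followed by Atf4 at 63.3 ± 1.29 and Canx at 62.9 ± 2.40, whose difference lay within their spread. At the other end were Asns at 0.241 ± 0.0899, Pycr1 at 0.228 ± 0.0390, Atf3 at 0.208 ± 0.0228, Chac1 at 0.00685 ± 0.0119 and Slc7a11 at 0.00632 ± 0.00290. Asns, Pycr1 and Atf3 did not differ beyond their spread, nor did Chac1 and Slc7a11. In conventional cells the 5 lowest genes and Cebpb, next at 1.88 ± 0.147, differed between genotypes by at least 1.29 on the log2 scale. Genes above 40 on this scale changed by at most 0.24 on the log2 scale. The WT conventional level that ranks the genes is also the base of these fold changes. Chac1 and Slc7a11 lay under the filter level of 0.311 CPM there and were tested through the other groups. These values therefore cannot show a relation of level to change. In KO regulatory libraries Calr led at 242 ± 10.8, then Hspa5 at 145 ± 13.4, Hsp90b1 at 130 ± 7.53 and Pdia4 at 125 ± 9.32, the last 3 within their spread of each other.

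Other genes of the pathways, 118 in lists by function of which 113 were tested (Vldlr, Gdf15, Cth, Aldh1l2 and Ern2 had too few reads), set the members in context. In KO conventional cells 20 of the 113 were higher and 43 lower, with a median log2 fold change of -0.08. Scaled on T cell genes, 64 were higher and 0 lower, with a median of 0.51 beside 0.53 over all genes, so the lower values that follow are relative to the bulk of genes. Cytosolic aminoacyl-tRNA synthetases, which charge tRNAs and are ATF4 targets in part, were lower for 12 of 20 and higher for 2 (0 lower and 9 higher when scaled on T cell genes), with Farsa at -0.30 ± 0.05 (adjusted p = 0.000433), Eprs at -0.28 ± 0.05 and Mars at -0.28 ± 0.05. Genes of endoplasmic reticulum folding and protein entry were lower for 15 of 32 and higher for 2 (0 and 16 with that scaling), among them the translocon partner Sec63 at -0.30 ± 0.05, the folding sensor Uggt1 at -0.29 ± 0.05 and the translocon-associated Ssr3 at -0.23 ± 0.04. Genes of endoplasmic reticulum-associated degradation were lower for 6 of 16 and higher for 1 (0 and 9), with the ubiquitin ligase Rnf5 at -0.44 ± 0.06 and the mannosidase Man1b1 at -0.19 ± 0.04. These shares of lower genes stand beside 25.4% of all tested genes.

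Of 20 further ATF4-responsive genes tested, 7 were higher (35%) and 2 lower (10%) in conventional cells, beside 23.3% and 25.4% of all tested genes. Scaled on T cell genes, 15 were higher and 0 lower. Pmaip1, the BH3 protein NOXA, rose by 2.35 ± 0.17 on the log2 scale (adjusted p = 3.94e-06), the bZIP gene Jdp2 by 2.15 ± 0.23 (adjusted p = 3.26e-05) and Nupr1, a small stress-induced chromatin protein, by 4.20 ± 0.56 (adjusted p = 0.000132, from 22 counts over the WT libraries). Nupr1 lies on chromosome 7 at 126623249 to 126630861, near the targeted Coro1a at 126699773 to 126707787. The part of the targeted locus in its rise was not tested. Of 10 other amino acid transporters 5 were higher, including the neutral amino acid carriers Slc7a8 at 2.04 ± 0.33 and Slc43a1 at 1.88 ± 0.25, and 2 lower, including Slc7a6 at -0.41 ± 0.05. Of 8 genes of eIF2 alpha and its regulators, Eif2ak2 (the double-stranded RNA kinase PKR) at 0.67 ± 0.08 and Impact at 0.31 ± 0.09 were higher, and 2 were lower, one of them Eif2s1, eIF2 alpha itself, at -0.33 ± 0.07. Of 8 sensor processing genes tested, 4 were lower and 1 higher. The tRNA ligase Rtcb, which joins spliced Xbp1, was at -0.27 ± 0.05, the site-1 protease Mbtps1 at -0.26 ± 0.06 and Creb3l2 at 0.68 ± 0.15. Shares higher and lower were 50% and 20% for the transporters and 25% and 25% for the eIF2 alpha genes. For the sensor processing genes they were 12.5% and 50%. Scaled on T cell genes, 7, 5 and 4 genes of these lists were higher and 0 lower.

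In KO regulatory libraries 6 of the 113 were higher and 2 lower (5.31% and 1.77%, beside 4.01% and 3.82% of all tested genes), and 56 and 0 when scaled on T cell genes. The called genes named by the rule were Hyou1, a chaperone of the endoplasmic reticulum, at 0.29 ± 0.04 (adjusted p = 0.00426), Vars at 0.33 ± 0.07 (0.0181), Atf5 at 0.53 ± 0.13 (0.0312), Ndrg1 at 0.72 ± 0.19 (0.0385) and Traf2, an IRE1 alpha partner, at 0.23 ± 0.06 (0.0378), with Ssr3 lower at -0.26 ± 0.04 (0.00754). Of the genes named but not called, Slc7a8 was at 0.87 ± 0.31 (adjusted p = 0.109), Eif2s1 was at -0.20 (0.1), Slc1a5 at -0.18 (0.0984) and the degradation gene Erlec1 at -0.22 (0.0668). In the cell type comparisons 65 of the 113 were higher and 26 lower in WT (57.5% and 23%, beside 39.1% and 33.3% of all tested genes), and 67 and 21 in KO (59.3% and 18.6%, beside 36.1% and 31.7%), with the synthetases higher for 12 of 20 in WT and 17 of 20 in KO. With T cell gene scaling the counts were 90 higher and 0 lower in WT and 86 and 0 in KO. The knockout effect differed between cell types upward for 15 of the 113 and downward for 11 (13.3% and 9.73%, beside 8.86% and 12.4%), and for 0 and 6 with that scaling.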

How the data were processed

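Poly(A) RNA was sequenced from 12 libraries in 4 groups of 3. The deposited values are raw counts per Ensembl gene (45706 genes), reverse-stranded as the table is named; the submitters' processing notes name STAR 1.7.20 and GRCm38, and the annotation release is not given in the sources used here. The 4 tally rows (unmapped 2.40% to 5.56%, multimapping 9.25% to 19.5%, without feature 4.98% to 15.7%, ambiguous 1.02% to 1.13% of reads) were left out. Library totals of 19686870 to 33404302 gene counts limit the precision of genes with few counts; counting intervals cover counting error only.

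Symbols were matched for 45143 IDs. The fit was edgeR 4.0.16 (R 4.3.3): filterByExpr (minimum count 10, total 15), TMM factors, quasi-likelihood F test, 1 term per group over all 12 libraries, Benjamini-Hochberg over 15922 genes, threshold 0.05. SE is the log2 fold change divided by the square root of F. CPM are TMM-scaled; exon lengths and overlaps are GENCODE M21 on GRCm38. The method was tested on simulated data. Members, lists and rules were chosen with earlier results of these data known. Per-library values were given for Atf4, Xbp1, Ddit3, Asns and Hspa5 and, per role and knockout comparison, the 3 smallest p; per other list, 3 (conventional) and 2 (regulatory) smallest p. The values of 1 gene that this rule names are not reported here. Alternatives were other scalings (RLE, upper quartile, T cell genes), filters, DESeq2 1.42.0, limma 3.58.1 (voom), fits of the compared groups alone, a replicate block, an Xist term, other thresholds and left-out libraries. Deviations of same-numbered libraries from their group means had correlations of -0.518 to 0.176, and the libraries were not treated as pairs. With 3 libraries a group, such correlations cannot exclude that the numbers stand for matched material.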

Additional observations from a re-analysis of the deposited data

Results flagged for a closer look

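For these 13 genes the effect of the knockout differed between the cell types by a test of the difference itself (edgeR, adjusted over 15922 genes). Of the 33 genes 15.2% differed upward and 24.2% downward, beside 8.86% and 12.4% of all tested genes. Values are the log2 fold change of KO over WT in regulatory minus that in conventional libraries, with 3 libraries in each group. The difference was negative for Chac1 (-5.45), Atf3 (-2.27), Cebpb (-1.86), Asns (-1.52), Atf6 (-1.12), Sesn2 (-0.75), Xbp1 (-0.72) and Eif2ak3 (-0.43). It was positive for Calr (0.40), Slc7a1 (0.38), Phgdh (0.37), Pdia4 (0.36) and Slc7a5 (0.30), of which Slc7a5 lost its call in 17 of 25 other settings and Phgdh in 15 of 25. Macrophage, neutrophil and NK cell marker sums were also raised more by the knockout in conventional libraries; their part was not tested. With T cell genes as the scale, Chac1, Atf3 and Cebpb remained called. The Chac1 value rests on 1 count over the WT conventional libraries, and Chac1 passed the filter only through other groups.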

How the results depend on the processing

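Counts below are for KO against WT in conventional cells, KO against WT in regulatory cells, regulatory against conventional in WT and in KO, and the difference of knockout effects. Leaving out 1 library at a time gave 6073 to 8100, 439 to 1974, 10878 to 11727, 10054 to 11110 and 2314 to 3793 genes called, with 13 to 14, 3 to 8, 21 to 23, 17 to 20 and 2 to 6 of the 33 genes higher and 5 to 7, 0 to 3, 4 to 5, 5 to 6 and 7 to 9 lower. RLE factors, DESeq2 and limma-voom each gave 2 lower in regulatory cells, and DESeq2 called 2010 genes there. Upper-quartile factors left 3 upward differences, and no filter left 0 lower in regulatory cells. Fitting only the groups compared called 313 genes in regulatory cells, with 3 of the 33 higher and 0 lower. A minimum mean of 5 CPM gave 4835 genes in conventional cells, with 2 of the 33 lower there, 2 lower in regulatory cells, and 3 upward and 5 downward differences; fewer genes are tested. A 1.5-fold minimum called 3602, 562, 7569, 6726 and 2018 genes; 2 were higher and 0 lower in regulatory cells, 1 lower in conventional cells, 1 and 2 lower by cell type, and 0 upward. A threshold of 0.01 called 253 genes in regulatory cells and 1425 differences, with 2 higher and 0 lower, 3 lower in conventional cells, and 2 upward and 5 downward differences. With the replicate block 7279, 856, 11244, 10478 and 2753 genes were called, with 0 of the 33 lower in regulatory cells and 3 upward differences, and other member counts within 1.5 times.

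Scaling on T cell genes shifted the median of all genes to 0.53, 0.53, 0.71 and 0.62 on the log2 scale in the 4 contrasts, called 5157 genes in regulatory cells and 951 differences, and made 22 (conventional) and 19 (regulatory) of the 33 higher and 0 lower in any contrast of groups, with 0 upward and 3 downward differences. The sign turned in conventional cells for Phgdh (0.30), Shmt2 (0.39), Slc7a5 (0.035), Slc7a1 (0.28) and Edem1 (0.38), in regulatory cells for Slc7a5 (0.28), by cell type in WT for Ddit3 (0.40), Slc7a1 (0.13) and Edem1 (0.084), and in KO for Ern1 (0.17), Ddit3 (0.19) and Edem1 (0.0070); each lies below the shift of all genes. Without the 4 libraries with Xist and Y-linked reads both above 1 CPM, 125 genes in regulatory cells and 2228 differences were called, with 0 of the 33 higher and 0 lower in regulatory cells, 12 lower in conventional cells and 2 upward; this leaves 1 library in each regulatory group, assumed to vary like the others. Without the 2 libraries above 10 CPM, a limit chosen after seeing the data, 10 were lower in conventional and 2 in regulatory cells.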
